A study of Mus musculus with 15 samples.

Results

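The promoters described here are the protein-coding promoters that carried a H3K4me3 island in every one of 15 mouse liver libraries without being broad in most of them. The islands of the 15 lists were merged where they overlapped or touched. A merged region was kept when it held an island in all 15 lists, had the transcription start site (TSS) of a protein-coding gene within 1 kb, and had an island of 4000 bp or more in fewer than 5 lists. The lists merged into 74158 regions, of which 12566 had a coding TSS within 1 kb and 1984 were present in all 15 lists. The rule kept 1325 regions, called members here, which are 10.5% of the coding regions and 1.79% of all merged regions, and lie within 1 kb of 1730 protein-coding genes. A further 397 coding regions were present in all 15 lists but too wide (called broad here), 10844 were present in 1 to 14 lists, and 262 regions in all 15 lists had no coding TSS. Presence and width chose the members, so both are given below as descriptions without a test.

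H3K4me3 was profiled by PAT-ChIP-seq, which immunoprecipitates chromatin taken from paraffin blocks of formalin-fixed tissue, in the livers of C57BL/6 females (C57BL/6J in the study's methods). The labels give an age of 12 months, while the series text gives 10 months of feeding from an age of 3 months, so the age at collection is uncertain. There were 3 mice on each of 5 diets and 1 library per mouse. The diets were a standard diet ad libitum (SD), caloric restriction on the standard formula (CR), a high-fat diet ad libitum (HF), and 2 standard-type diets in which the maize was replaced by yellow corn without anthocyanins (YD) or by the near-isogenic purple corn rich in cyanidin-3-O-glucoside (RD). The study asked how each diet differed from SD and, for the anthocyanins, how RD differed from YD. The chromatin of each mouse came from 4 liver sections, so all cell types of the organ contributed. The 15 mice came from 6 litters, and the labels do not say which mouse came from which litter. No animal carried a transgene or a deletion according to the labels.

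H3K4me3 is set by the SET1 and MLL complexes, whose CXXC subunits bind unmethylated CpG dinucleotides, and it collects on the nucleosomes that flank the start sites of active and poised genes. Promoters that lie in CpG islands serve most genes needed in every cell, such as those for ribosomes and proteasomes. In the liver many genes of hepatocyte metabolism and secretion start instead from CpG-poor promoters that are read by liver-enriched factors.

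The sequences at the members' start sites show both kinds of promoter. Of 1727 gene symbols at members, 1408 had an entry in the RefSeq promoter table (GRCm38.p6, the assembly of mm10), and each sequence below runs from 100 bases before to 20 bases after the start, 5′ to 3′ in the direction of the gene. Every CpG dinucleotide is in capitals. The first 3 are CpG-rich: Rbm7 (chr9:48495311-48495430, minus strand) and Yipf3 (chr17:46247980-46248099, plus strand) had among the steadiest normalised scores of the members, and Psma6 (chr12:55398725-55398844, plus strand) had the highest-ranked island of the proteasome genes. The other 4 are CpG-poor promoters of liver genes: Cyp2e1 (chr7:140763719-140763838, plus strand), Tat (chr8:109990336-109990455, plus strand), C3 (chr17:57228117-57228236, minus strand) and Apoa1 (chr9:46228530-46228649, plus strand).
Rbm7: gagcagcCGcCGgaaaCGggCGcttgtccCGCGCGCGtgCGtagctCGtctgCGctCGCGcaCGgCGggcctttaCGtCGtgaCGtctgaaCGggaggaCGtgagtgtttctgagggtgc
Yipf3: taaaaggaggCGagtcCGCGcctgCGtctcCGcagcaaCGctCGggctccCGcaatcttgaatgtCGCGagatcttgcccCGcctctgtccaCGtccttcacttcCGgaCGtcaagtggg
Psma6: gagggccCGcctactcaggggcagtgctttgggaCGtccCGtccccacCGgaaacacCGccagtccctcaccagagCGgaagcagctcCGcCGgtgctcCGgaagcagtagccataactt
Cyp2e1: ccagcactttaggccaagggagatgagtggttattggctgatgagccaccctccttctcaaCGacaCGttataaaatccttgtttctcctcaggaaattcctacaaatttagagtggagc
Tat: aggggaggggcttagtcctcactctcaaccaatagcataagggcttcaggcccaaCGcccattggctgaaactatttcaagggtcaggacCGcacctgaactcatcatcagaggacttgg
C3: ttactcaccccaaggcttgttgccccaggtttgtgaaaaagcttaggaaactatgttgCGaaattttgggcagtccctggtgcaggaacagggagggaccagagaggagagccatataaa
Apoa1: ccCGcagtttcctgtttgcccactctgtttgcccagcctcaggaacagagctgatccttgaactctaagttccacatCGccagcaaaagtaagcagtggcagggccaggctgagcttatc
The 120 bases held 20 CpG dinucleotides at Rbm7, 14 at Yipf3 and 9 at Psma6, but 2 at Cyp2e1, 2 at Tat, 1 at C3 and 2 at Apoa1. All 7 start sites lay inside a region with an island in all 15 libraries.

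The CpG ratio is the number of CpG dinucleotides divided by the number that the C and G content would give. It was computed from 250 bases before to 50 bases after the main TSS of each gene. Its median was 0.825 over the 1631 member genes whose main TSS lay at a member. The other genes were classed in the same way, by the regions within 1 kb of their main TSS. The median was 0.742 over genes marked in 1 to 14 lists and 0.748 over broad promoters. It was 0.239 over genes with no island at the main TSS and 0.562 over all 21755 coding genes. A ratio of 0.6 or more was found at 83.3% of the member genes and at 47.2% of all coding genes. The GC content had a median of 61.0% at member genes and 56% over all coding genes.

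**Figure D1:**
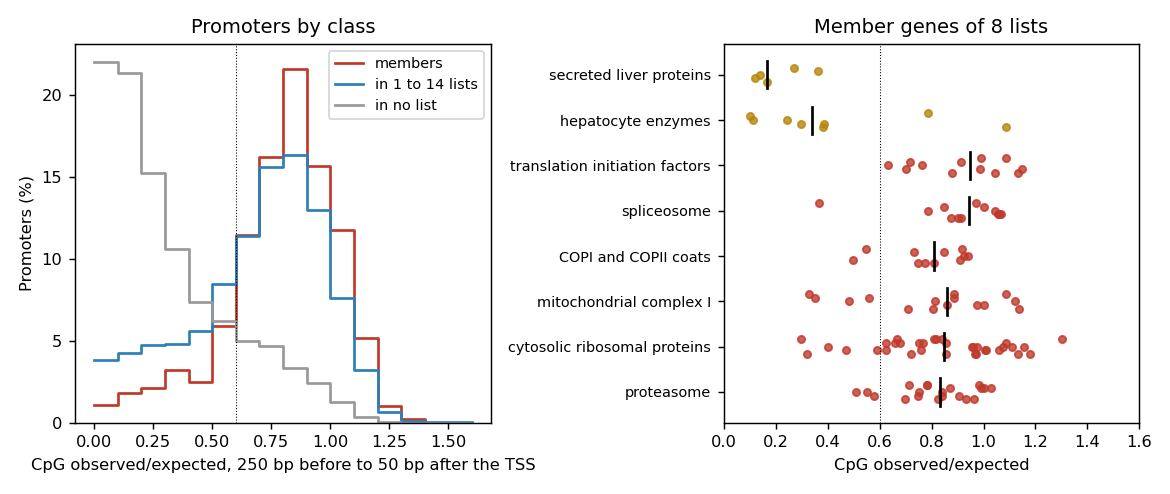
Left: share of promoters (%) by CpG ratio in steps of 0.1, with genes classed at the main TSS. Lines show member genes, genes marked in 1 to 14 lists and genes in no list, and the dotted line marks 0.6. Right: CpG ratio of each member gene of 8 gene lists, with the median of each list as a black bar. Member promoters were mostly above 0.6, and the secreted liver proteins and hepatocyte enzymes had medians of 0.166 and 0.341.

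A search for 13 motifs in the same 300 bases, on both strands and with overlaps between motifs allowed, found some more often at member genes than over all coding genes. Genes were again classed at the main TSS. The ETS-type motif CCGGAAG was present at 27.4% of the 1631 member genes, 16.1% of genes marked in 1 to 14 lists and 11.3% of all coding genes. The YY1 motif shown in capitals at Prpf38b below was present at 3.74% of member genes and 1.22% of all, the palindrome shown in capitals at Rps6 below at 2.45% and 0.621%, and the CRE TGACGTCA at 4.90% and 2.53%. Genes marked in 1 to 14 lists had 1.86%, 0.730% and 3.14% of these. The NRF1-type motif GCATGCGC was present at 5.46% of member genes and 3.46% of all, but also at 5.30% of genes marked in 1 to 14 lists. The ZNF143 motif was present at 0.797% and 0.414%, with 0.671% of genes marked in 1 to 14 lists. The GC box GGGCGG was present at 62.5% of member genes, close to the 62.1% of genes marked in 1 to 14 lists, and 45.7% of all. The CCAAT box was present at 39.9% of member genes, 38.4% of all and 45.6% of broad promoters. The E-box CACGTG was present at 8.52% of member genes and 7.82% of all, below the 9.84% of genes marked in 1 to 14 lists and the 12.3% of broad promoters. Motifs that were less frequent at member genes included TATAAA, with 6.74% against 12.5% of all coding genes and 8.35% of those marked in 1 to 14 lists. The letters TGTTTAC (FOXA) were present at 2.15% against 2.94%, and CAAAGTCCA (HNF4) at 0.245%, only 4 genes, against 0.432%. The HNF1 motif was present at 0 of the 1631 and at 10 of all 21755 coding genes (0.046%), too rare to compare. These shares are per gene, so a site between neighbouring starts can count for both genes. Coding pairs that start within 1 kb in opposite directions were at 15.9% of members and 4.41% of coding regions in 1 to 14 lists. These are matches of letters, and binding was not measured.

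Examples of the motif-bearing promoters are shown over the same 120 bases, with the motif in capitals on whichever strand it lies. CCGGAAG is marked at Psmd11 (chr11:80428515-80428634, plus strand), Rps18 (chr17:33955646-33955765, minus strand) and Polr1c (chr17:46248026-46248145, minus strand), which starts 35 bp from Yipf3 in the opposite direction. The palindrome is marked at the ribosomal protein genes Rps6 (chr4:86857348-86857467, minus strand) and Rps28 (chr17:33824543-33824662, minus strand), and the YY1 motif at the splicing gene Prpf38b (chr3:108911710-108911829, minus strand). They were chosen for the motif after the matches were seen.
Psmd11: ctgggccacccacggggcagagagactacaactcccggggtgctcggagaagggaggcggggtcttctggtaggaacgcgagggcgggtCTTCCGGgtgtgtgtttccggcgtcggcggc
Rps18: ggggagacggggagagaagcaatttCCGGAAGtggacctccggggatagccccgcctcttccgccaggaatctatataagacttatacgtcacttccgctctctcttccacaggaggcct
Polr1c: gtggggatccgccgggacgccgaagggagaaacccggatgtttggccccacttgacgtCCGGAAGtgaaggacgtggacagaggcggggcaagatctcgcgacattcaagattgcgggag
Rps6: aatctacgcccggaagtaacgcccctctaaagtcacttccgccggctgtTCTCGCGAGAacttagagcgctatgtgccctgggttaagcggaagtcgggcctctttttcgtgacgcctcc
Rps28: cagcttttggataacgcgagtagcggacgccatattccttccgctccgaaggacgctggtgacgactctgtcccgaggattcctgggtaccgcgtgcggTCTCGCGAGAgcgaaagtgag
Prpf38b: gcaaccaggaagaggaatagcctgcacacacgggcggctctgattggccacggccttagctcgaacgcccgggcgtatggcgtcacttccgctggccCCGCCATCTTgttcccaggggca
At Psmd11 and Prpf38b the capitals show the motif read from the opposite strand.

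The members were compact and centred downstream of the start site. Their merged span had a median of 4400 bp, and the median length covered per library had a median of 2400 bp over the members. A single island made up 95.7% of the 19875 pairs of a member and a library. A base covered in all 15 lists was found in 1259 members (95%), and the bases shared by all lists had a median length of 600 bp. The other 66 members (4.98%) were marked in every list but at no common base.

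The island lay mostly after the TSS. This was measured at 903 members with 1 coding gene and its main TSS within 1 kb. Where an island covered the TSS, it reached a median of 639 bp upstream and 1692 bp downstream in the middle library, with library medians of 414.5 to 913 bp upstream and 990 to 2218 bp downstream. The island was longer on the downstream side at 81.9 to 91.9% of the promoters with a covered TSS, depending on the library. The main TSS is the 5′-most of equally ranked ones, a choice that can lengthen the downstream side. Coverage was highest 300 to 700 bp after the TSS in every library. The TSS itself was covered at 94.1% of the members in HF replicate 3 and at 37.9% in YD replicate 3, with a median of 79.6% over the libraries. Over all 1325 members, only 619 (46.7%) had a coding TSS within the bases shared by all 15 lists. Broad promoters had the same asymmetry, with medians of 988.5 bp upstream and 3174 bp downstream in the middle library.

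**Figure D2:**
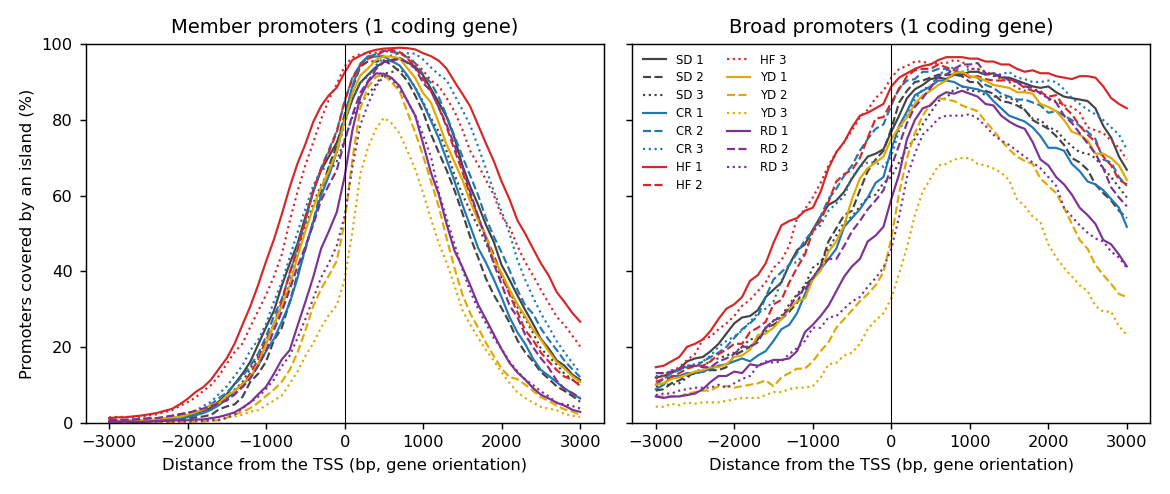
Share of promoters (%) covered by an island against the distance from the TSS (bp, in the direction of the gene) for 903 members (left) and 259 broad promoters (right); each line is 1 library, coloured by diet, with replicates 1 to 3 solid, dashed and dotted. At the members the lines peaked 300 to 700 bp after the TSS, and YD replicate 3 was the lowest line.

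The length covered at a member moved with the library. The median over the members was 2600, 2200 and 2400 bp under SD, 2200, 2600 and 3000 bp under CR, and 3400, 2400 and 3000 bp under HF. It was 2400, 1600 and 1200 bp under YD and 1800, 2400 and 1600 bp under RD. The HF mice were at or above the middle library, and YD replicate 3 was the lowest, while the diets overlapped. The mean of these library medians was 2933 ± 503 bp (standard deviation, n = 3 mice) for HF and 1733 ± 611 bp (standard deviation, n = 3 mice) for YD. Broad promoters followed the same order of libraries at its ends, from 2400 bp in YD replicate 3 to 6200 bp in HF replicate 1.

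The score of an island adds, over its enriched windows, the negative natural logarithm of the Poisson probability of the reads there, and it is not scaled between libraries. The median score summed over a member was 76.0, 63.6 and 50.5 under SD, 48.8, 93.0 and 154 under CR, and 210, 97.2 and 129 under HF. It was 52.7, 35.2 and 24.3 under YD and 39.1, 65.4 and 34.6 under RD. The reads behind the lists, recovered from the steps of the score and within 0.001 of a whole number, ranged from 5589269 to 15449854. The library with the most reads, YD replicate 1, had a median member score of 52.7, and CR replicate 3 with 8716790 reads had 154. The reads at each island are not known, so no counting interval is given. The yield of the immunoprecipitation was not measured, so differences in these scores are not shown to be differences of the mark in the tissue. In whole liver, fewer cells that carry the mark and less of it per cell also cannot be told apart.

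Members were ranked within each list by the share of the list's islands with a lower score than their best island. The median of the members lay between the 72.4 percentile in YD replicate 1 and the 94.4 percentile in CR replicate 3. Over the lists the typical member had a median percentile of 86.3, and broad promoters had 96.7. No list ranked all members high: between 1 member (CR replicate 3) and 332 members (YD replicate 3) fell below the median of their list. Only 515 members (38.9%) had a percentile of 50 or more in all 15 lists. Members took 4.26 to 17.2% of the islands of a list and 7.26 to 19% of its summed score.

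**Figure D3:**
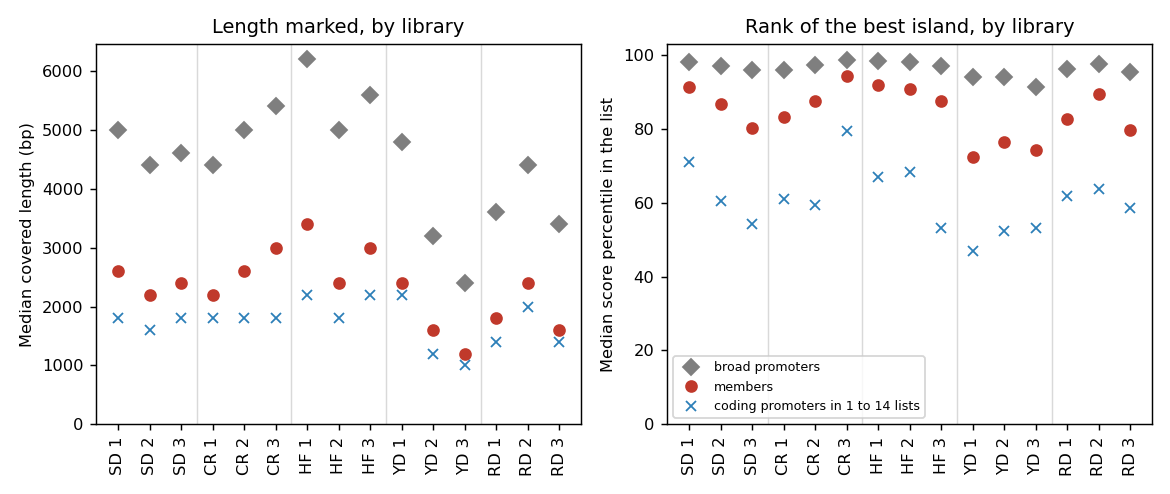
Median covered length (bp, left) and median score percentile within the list (right) of broad promoters, members and coding promoters marked in 1 to 14 lists, for each of the 15 libraries grouped by diet. Members lay between the other classes in every library, from 1200 bp in YD replicate 3 to 3400 bp in HF replicate 1.

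At the width limit, 79 members had an island of 4000 bp or more in 4 lists and 71 coding regions were left out with 5 lists. Csnk1a1, for the casein kinase 1 alpha that phosphorylates beta-catenin, was inside with a median covered length of 3400 bp and a median percentile of 97.8. Aida and Ddx6 were outside with 3400 and 3800 bp and percentiles of 99.3 and 98.7. An island of that width was seen in none of the lists for 621 members.

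At the limit of presence, 1294 coding regions had an island in exactly 14 lists. YD replicate 3 was the missing list for 687 of them (53.1%). RD replicate 3 was missing for 133, YD replicate 2 for 131 and YD replicate 1 for 127, while CR replicate 3 and HF replicates 1 and 2 were missing for 0. The region of Ddx5, an RNA helicase, and Cep95 (chr11:106784801-106791200) was among those missing in YD replicate 3 alone, with a median score of 144 over the 15 lists. With YD replicate 3 left out and the merged regions kept, the rule kept 1959 regions in place of 1325. Without any other single library it kept 1344 to 1474. That library had 10906 islands, 8337057 recovered reads and the shortest median covered length of the 15.

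Chromosome X held few members. It carries 948 of the 21755 coding genes (4.36%), but 5 of the 1325 members (0.377%). By genes, 0.527% of the X-linked coding genes lay at a member against 5.54 to 10.6% of the genes of each autosome. X-linked genes also had fewer islands in general: the share with an island in a library was 0.180 times the autosomal share in YD replicate 3 and 0.575 times in HF replicate 1, the extremes of the 15 libraries. The reason was not tested. Kdm6a, an X-linked H3K27 demethylase that belongs to the MLL3 and MLL4 complexes, was a member with a median percentile of 95.7.

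A bidirectional start was common. A pair of coding genes that start within 1 kb of each other in opposite directions was found at 211 members (15.9%), 35 broad promoters (8.82%) and 478 of the coding regions in 1 to 14 lists (4.41%). Such members had a median percentile of 89.1 against 85.8 for the 949 members with a single coding gene, and 73.0% against 38.4% had a coding TSS in the bases shared by all lists. The 2 sets differ in the number of start sites per region. The median length of the member genes themselves was 22.3 kb, close to the 22.1 kb of broad genes and the 23.7 kb of genes marked in 1 to 14 lists, while genes with no island had 10 kb.

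Genes for protein turnover, secretion and translation were frequent among the members. Of all coding genes, 7.95% lay within 1 kb of a member and 10.1% within 1 kb of a member or a broad promoter. Beyond the highest-ranked gene of each list, the genes named were chosen after their values were seen. Of 32 proteasome genes, 20 (62.5%) did, with Psma6 highest at a median percentile of 93.6, followed by Psmd11 (92.5), Psma2 (92.4) and Psmd1 (92.1). They included subunits of the catalytic core (Psma and Psmb genes), the ATPase ring (Psmc) and the lid and base (Psmd). Psmb1 was broad, and the other 11 proteasome genes, such as Psmb5 and Psmd13, were marked in 10 to 14 lists. Of 21 genes for the COPI and COPII coats, which carry vesicles between the endoplasmic reticulum and the Golgi, 11 (52.4%) were at members, with Copa at 96.5 and Cope at 94.5. Of 78 cytosolic ribosomal protein genes, 35 (44.9%) were at members, led by Rpl9 (95.6), Rps18 (95.1) and Rpl13a (94.1). Ribosomal protein genes have many processed copies in the genome, and reads shared with them could be lost or placed wrongly.

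Other housekeeping lists had smaller shares. Complex I of the respiratory chain had 15 of 36 genes at members (41.7%), with Ndufb5 highest at 91.2. Translation initiation factors had 12 of 36 (33.3%) with Eif4a2 at 97.3, and core autophagy genes had 10 of 31 (32.3%) with Gabarapl1 at 96.5. Aminoacyl-tRNA synthetases had 6 of 19 (31.6%) with Kars at 92.5, the chaperonin CCT and prefoldin 4 of 13 (30.8%) with Pfdn2 at 97.3, and Mediator 9 of 30 (30%) with Med22 at 93.8. The spliceosome had 12 of 42 (28.6%) with Sf3a2 at 97.0. The complexes that write H3K4 methylation had 4 of 17 genes at members (23.5%), among them Kmt2a (59.4) and Cxxc1 (74.4), which carries a CpG-binding CXXC domain. Nuclear pore genes had 5 of 25 (20%), with Nup62 highest at 91.6, and the RNA exosome 2 of 11 (18.2%).

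Other general complexes had shares near that of all coding genes, or no member. RNA polymerase II had 1 of 12 genes at a member (8.33%), the small subunit gene Polr2l at 93.2, while its other genes were marked in 9 to 13 lists. General transcription factors had 2 of 31 (6.45%), Taf3 and Gtf2h1, and 2 more were broad. None of the 9 COP9 signalosome genes was at a member, although each was marked in 9 to 14 lists. When YD replicate 3 was not required, 3 of the 9 COP9 genes qualified, proteasome genes rose to 23 of 32 (71.9%), ribosomal protein genes to 51 of 78 (65.4%) and all coding genes to 2506 (11.5%). Translation initiation factors rose to 19 of 36 (52.8%) and general transcription factors to 4 of 31 (12.9%), while the RNA polymerase II count stayed at 1 of 12. Secreted liver proteins rose from 5 to 10 of 39 (25.6%), liver-enriched transcription factors from 3 to 5 of 20 (25%), and hepatocyte enzymes stayed at 9 of 41.

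**Figure D4:**
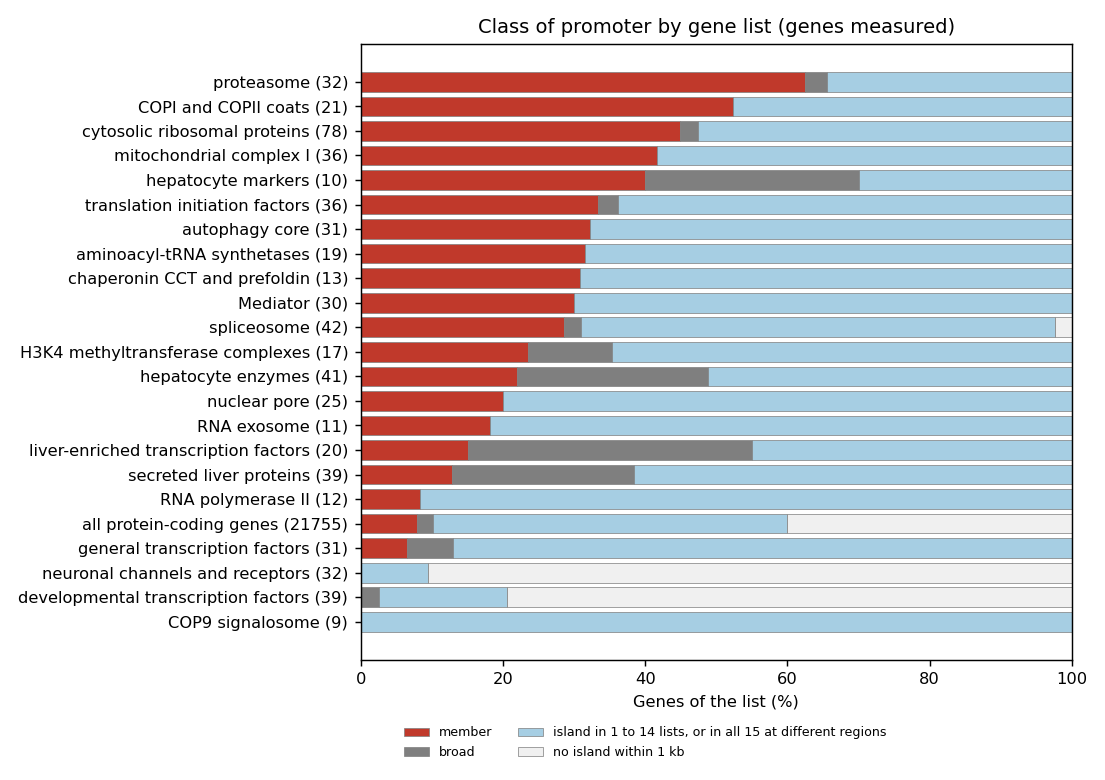
Share of the genes of each list (%, number of measured genes in parentheses) whose promoter was a member, was broad, had an island in another region class, or had no island within 1 kb. Proteasome genes had the highest share of members, 62.5%, and the developmental and neuronal lists were mostly without an island.

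Liver genes were split between members, broad promoters and promoters that were neither. The last class had an island within 1 kb. It held 21 of 41 hepatocyte enzyme genes, 24 of 39 secreted liver proteins and 9 of 20 liver-enriched transcription factors. Of 41 hepatocyte enzyme genes, 9 (22.0%) were at members and 11 were broad. The members were Fasn (fatty acid synthase, median percentile 90), Aldh2 (89.6), Tat (tyrosine aminotransferase, 89.0), Arg1 (arginase of the urea cycle, 87.8), Gnmt (85.4), Fah (85.2), Cyp2c29 (83.6), Asl (72.9) and Cyp2e1 (68.7). Of 39 secreted liver proteins, 5 (12.8%) were at members and 10 broad: Apoa1 and Apoc3 share 1 region (92.8), and C3 (91.2), Trf (86.2) and F2 (86.1) follow. Of 20 liver-enriched transcription factors, 3 were at members, Cebpb (91.0), Nr1i2 (90.1) and Creb3l3 (79.6), and 8 were broad, among them Hnf4a, Cebpa and Ppara. Albumin was marked in only 8 lists.

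Most secreted protein and hepatocyte enzyme genes among the members started from CpG-poor sequence. The CpG ratio had a median of 0.166 at the 5 secreted protein genes and 0.341 at the 8 hepatocyte enzyme genes whose main TSS lay at the member. It was 0.833 at the 20 proteasome genes, 0.847 at 34 ribosomal protein genes and 0.948 at 12 translation initiation factor genes. Within these 2 liver lists the lowest values were 0.10 at Cyp2e1, 0.112 at Cyp2c29, 0.122 at Apoc3 and 0.141 at C3, and the exceptions above 0.6 were Fasn (1.09) and Fah (0.787). The 2 liver-enriched transcription factor genes with their main TSS at a member were divided, with 0.130 at Nr1i2 and 1.03 at Cebpb. Among all members, 217 had a ratio under 0.6 at the nearest gene with its main TSS there. Their median covered length of 2400 bp equalled that of the 1052 CpG-rich members, and their median percentile was 85.4 against 86.4.

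Lists of other kinds held no member, apart from the hepatocyte markers. Of all coding genes, 7.95% lay within 1 kb of a member, and 8711 of 21755 had no island in any list. None of 39 developmental transcription factor genes was at a member, 31 had no island in any list, and Gata4 was broad. None of 32 neuronal channel and receptor genes was at a member, and 29 had no island. Of 10 hepatocyte markers, 4 were at members (Apoa1, Tat, Asgr1 and Cyp2e1) and 3 were broad. Apoa1, Tat and Cyp2e1 were already counted in the liver lists above. None of the 7 Kupffer cell, 7 sinusoidal endothelial, 7 stellate cell, 6 cholangiocyte or 5 lymphocyte markers was at a member. Lists this small could hold 0 members at the share of all coding genes, so these counts do not set them apart. The endothelial markers were marked in a median of 4 lists and the Kupffer cell markers in a median of 0.

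The highest-ranked members were regions rich in masked repeats. Gm10801 (chr2:98662001-98664200), Gm10800 (chr2:98666001-98670400), Gm10722 (chr9:2999801-3003200), Gm11168 (chr9:3003801-3009200) and Gm10717 (chr9:3028601-3032800) are predicted genes with median percentiles from 99.88 (Gm10717) to 99.98 (Gm10801). Their score per covered kb was 2603 at Gm10801, 3870 at Gm10800, 1045 at Gm10722, 302 at Gm11168 and 567 at Gm10717, against a median of 28.8 over the members. Between 48.1% (Gm10801) and 96.5% (Gm11168) of their bases are soft-masked as repeats in the genome, against a median of 17.8%. Reads from near-identical copies may be counted there, so these values are uncertain as measures of a promoter. In all, 9 members reached 50 per kb, a threshold set after the values were seen, and Litaf, Oasl1, Duxf3 and Muc3 were the others. Without them 1316 members remained with a median percentile of 86.2.

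Of the members under that threshold, those ranked highest were Pfkfb2 with Yod1 (97.9), Csnk1a1 (97.8), Usp38 (97.6), Irf2bpl (97.6) and Nme3 with Mrps34 and Eme2 (97.4). Pfkfb2 makes a bifunctional enzyme that sets the level of fructose 2,6-bisphosphate. The lowest-ranked members were Neu1, for lysosomal sialidase, with a median percentile of 49.1, Fam120b (53.7), Mtap (55.7), Angptl8 (57.5) and Pnpt1 (57.5). At Neu1 the percentile ranged from 5.55 to 80.2 over the lists, so its island was weak in some mice and well above the median of the list in others. The shortest member was Litaf, with 400 bp at an internal start site (chr16:10975001-10976000), then D8Ertd738e with 800 bp and Fam120b with 1000 bp. The longest were Chil3 with 10400 bp, and Irs1, the insulin receptor substrate, and Zfp936 with 5800 bp each. Irs1 ranged from 800 bp in YD replicate 3 to 8400 bp in SD replicate 1 and CR replicate 3. The lowest CpG ratios, taken at the main TSS, were those of 4931408C20Rik, the sulfotransferase gene Sult1a1 and Aldoa. The main TSS of Aldoa lay outside the bases shared by all lists, which held another coding start.

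The summed score of a region adds all its islands, so it mixes the length of the mark with its height. The rule limits this length at the members, so it can affect the share of members called. To compare diets, this score was log2 transformed, quantile normalised and fitted with limma for the 1984 regions present in all 15 lists. The p-values were adjusted over all 1984 regions. After this scaling the values are relative to the other regions of the same library. Before any scaling the median member differed from SD by a log2 of 1.17 in HF, 0.52 in CR, -0.74 in YD and -0.47 in RD. After scaling these medians were 0.10, 0.05, 0.01 and -0.02, so an overall gain or loss is removed from what follows.

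Against SD, almost no member was called as different. Only regions with an island in every list were tested, so a promoter that lost its island in any mouse could not be counted here. A member that was not called is not thereby shown to be unchanged. Limma with Benjamini-Hochberg adjustment called 0 members in CR, 0 in YD and 0 in RD, as it did 0% of all tested regions in each, and 1 member in HF, where 0.151% of the tested regions were called. At an unadjusted p under 0.05 CR had 56 members (4.23%) against 4.59% of the tested regions, and HF had 64 (4.83%) against 8.42%. YD had 101 (7.62%) against 8.01%, and RD had 65 (4.91%) against 5.85%. RD against YD, the comparison of purple with yellow corn, called 0 members and 0% of the tested regions, with 71 members (5.36%) at an unadjusted p under 0.05 against 4.28% of the tested regions. For most members the log2 difference was small: between the 5th and the 95th percentile it ran from -0.53 to 0.59 with CR, from -0.43 to 0.65 with HF, from -0.64 to 0.62 with YD and from -0.59 to 0.57 with RD. The median SE of a member was 0.33.

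The member that fell in HF was Id1, which encodes an inhibitor of basic helix-loop-helix transcription factors and is a known target of BMP signalling. Its region (chr2:152734801-152740200) holds the TSS of the single-gene promoter on the plus strand. The normalised log2 score was 6.95, 6.53 and 6.98 under SD, 6.83, 6.73 and 6.87 under CR, and 5.27, 5.24 and 5.5 under HF. It was 6.67, 6.5 and 6.02 under YD and 6.74, 6.23 and 6.42 under RD. All 3 HF mice were below all 12 others, and the lowest of the others was YD replicate 3. HF was lower than SD by a log2 difference of -1.48 (SE 0.27, limma adjusted p = 0.0190), lower than YD by -1.05 (adjusted p = 0.0348) and lower than RD by -1.12 (adjusted p = 0.0401). HF against CR was not tested. The calls against YD and RD were each kept in 7 of 16 alternatives (limma adjusted p 0.0194 to 0.889 and 0.0120 to 0.665).

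The Id1 difference was one of rank within the library. Without scaling the score was 122, 62.0 and 80.8 in HF and 139, 88.6 and 97.6 in SD, a log2 difference of -0.32 (limma adjusted p = 0.626). The percentile of the Id1 island was 77.1, 78.3 and 68.1 in HF, against 98.3, 95.1 and 96.6 in SD. Over 16 alternatives the direction against SD was kept in 16 and the call in 7, with an adjusted p of 0.0111 to 0.996. The call was lost without any 1 of SD replicates 1, 2 and 3 and HF replicates 1 and 3, with an adjusted p of 0.0591 to 0.137. HF replicate 1 and the SD mice share the ChIP form of the library name, while HF replicates 2 and 3 have the form PATChIP. With the form as a term the difference was -1.57 (limma adjusted p = 0.0291).

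Members nearest to a call in the other comparisons did not pass it. Atf5, a stress-responsive transcription factor, had 5.56, 5.25 and 5.10 in CR and 6.32, 6.55 and 6.32 in SD, a log2 difference of -1.09 (limma adjusted p = 0.564). Its region also holds Il4i1 and Nup62. Cdk13 had 7.07, 7.35 and 6.38 in CR and 5.5, 6.06 and 5.47 in SD, a difference of 1.26 (limma adjusted p = 0.749). Poldip3 had 6.94, 6.5 and 6.34 in YD against 5.38, 5.18 and 5.13 in SD and 5.35, 4.46 and 5.42 in RD, differences of 1.37 for YD against SD (limma adjusted p = 0.445) and -1.52 for RD against YD (limma adjusted p = 0.290). Ufd1, with Cdc45 in its region, had 4.87, 5.86 and 5.37 in YD and 6.54, 6.43 and 6.57 in SD, a difference of -1.15 (limma adjusted p = 0.451). The 3 mice of each diet did not overlap at these 4 genes, but none passed the adjustment over 1984 regions. For RD against SD, Zfp951 had the smallest p of the members above 0 (2.10, limma adjusted p = 0.578) and Xpot of those below (-0.97, limma adjusted p = 0.826).

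HF was also compared with the corn diets, a choice made after the medians per library had been seen. Against YD, 8 members were higher and 12 lower in HF, 1.51% of the members, while 4.03% of the tested regions were called (1.36% higher and 2.67% lower). Against RD, 12 were higher and 6 lower, 1.36% of the members, while 3.93% of the tested regions were called (1.71% higher and 2.22% lower). These shares depend on the regions tested. With coding regions only, 22 of 1722 regions were called against YD, 17 of them among the 1325 members. Against RD 4 of the 1722 were then called, 3 of them members. The comparisons share the HF libraries, and 8 of the 30 members called in either were called in both. With the library median subtracted in place of quantiles, 7 were higher and 19 lower against YD and 16 higher and 17 lower against RD. Of the 1984 tested regions, 237 were then called against YD and 309 against RD. Against YD the calls fell to 1 without HF replicate 1 or without YD replicate 3, and rose to 39 without HF replicate 2. They were 6 without HF replicate 3, 12 without YD replicate 1 and 9 without YD replicate 2. Against RD there were 0 calls without HF replicate 1 or 3 or any single RD replicate, 33 without HF replicate 2, and 0 with the replicate block. The calls against RD were thus lost with the removal of any of 5 single libraries.

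The largest difference of HF over a corn diet among the called members was at the Slc39a7 region (chr17:34023401-34034800). This region also holds Rxrb, H2-Ke6 and Ring1 in the histocompatibility complex. Slc39a7 encodes a zinc transporter of the endoplasmic reticulum and Rxrb a retinoid X receptor. The normalised log2 score was 8.05, 7.47 and 8.73 under HF, 5.44, 5.27 and 6.28 under YD, and 6.71, 5.84 and 6.36 under RD. It was 7.41, 7.40 and 6.49 under SD and 7.54, 6.62 and 6.80 under CR. HF lay above both corn diets and SD without overlap and overlapped with CR. YD lay below SD without overlap, and HF against SD was not called at this region. HF was higher than YD by a log2 difference of 2.42 (SE 0.39, limma adjusted p = 0.00812) and higher than RD by 1.78 (limma adjusted p = 0.0326). The first call was kept in 14 of 16 alternatives, with an adjusted p of 0.000910 to 0.110, and in all 6 that left out 1 library (highest adjusted p 0.0435). The second was kept in 7 of 16 (adjusted p 0.00547 to 0.399). The covered length was 9000, 5800 and 9000 bp in HF but 1600, 1000 and 800 bp in YD.

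Of the 7 other members higher in HF than in YD, Psmb3 and the Surf2 region had the largest differences. At Psmb3, a proteasome core subunit gene next to Pcgf2, the normalised log2 score was 7.15, 6.27 and 8.08 in HF and 5.67, 4.86 and 6.02 in YD, a difference of 1.65 (limma adjusted p = 0.0369). The Surf2 region, with Surf1, Rpl7a and Med22, had 8.28, 7.69 and 8.86 in HF and 7.0, 7.17 and 5.77 in YD, a difference of 1.63 (limma adjusted p = 0.0289). Over 16 alternatives each, the Psmb3 call was kept in 7 and the Surf2 call in 9. The remaining members higher against YD were Borcs6, Mef2d, Arcn1, Tnfrsf1a and Tpra1, with differences of 1.27 to 1.52.

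Against RD the largest positive differences after Slc39a7 were at Nr2f6 and Ptbp1. At Nr2f6, an orphan nuclear receptor gene, the normalised log2 score was 6.91, 6.84 and 8.45 in HF and 5.22, 6.00 and 6.47 in RD, a difference of 1.5 (limma adjusted p = 0.0438). At Ptbp1, a splicing regulator gene, it was 7.33, 6.83 and 8.18 in HF and 6.25, 6.09 and 5.68 in RD, a difference of 1.43 (limma adjusted p = 0.0401). HF replicate 3 was the highest value at both. The calls were kept in 5 and 6 of 16 alternatives. Of members named after their values were seen, Tnfrsf1a, the tumour necrosis factor receptor gene, was called against both corn diets, and Cebpd, a C/EBP transcription factor gene, was higher than in RD by 1.13 (limma adjusted p = 0.0401).

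Among the members lower in HF than in a corn diet, Cyp2c29 was the single gene of the hepatocyte enzyme list. Cyp2c29 encodes a cytochrome P450 and was named after its values were seen. The normalised log2 score was 5.33, 4.75 and 5.18 under HF, 6.31, 6.33 and 6.02 under YD, and 6.49, 6.01 and 6.37 under RD. It was 6.22, 5.52 and 6.71 under SD and 6.19, 6.08 and 6.67 under CR. The 3 HF mice were below the 12 others. HF was lower than YD by -1.14 (limma adjusted p = 0.0494) and lower than RD by -1.21 (limma adjusted p = 0.0425). The difference from SD was not called. Without HF replicate 1 or YD replicate 3, 0 members were called lower than in YD. Against RD, 0 members were called without any single RD replicate. Cyp2c29 lies among related Cyp2c genes, and whether reads were misplaced between them was not tested. Over the 9 member regions of this list the median log2 difference between HF and YD was -0.52, with 1 lower (2.67% of all tested regions were) and 0 higher, against a median of 0.05 over all tested regions. For the same list the median was -0.08 between HF and RD, with 1 lower (2.22% of all tested regions were), 0.06 between HF and SD and -0.58 between RD and YD.

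The lower members of largest change included regions of high repeat content or score density. Against YD they were led by Sfi1 (-1.93, limma adjusted p = 0.0182), Chil3 (-1.91, limma adjusted p = 0.0284) and Oasl1 (-1.85, limma adjusted p = 0.0105), and against RD by Chil3 (-1.85, limma adjusted p = 0.0401), Litaf (-1.71, limma adjusted p = 0.0316) and 4931408C20Rik (-1.56, limma adjusted p = 0.0401). At Sfi1 the normalised log2 score was 4.85, 6.47 and 5.89 in HF and 7.69, 7.45 and 7.85 in YD, and the marked region (chr11:3171601-3174400) is not at the main TSS and is 53.8% soft-masked. Oasl1 and Litaf exceed 50 per kb in score density, with 78.4 at Oasl1 and 360 at Litaf. Against YD the call was kept in 11 of 16 alternatives at Sfi1, 9 of 16 at Chil3 and 10 of 15 at Oasl1. Against RD it was kept in 6 of 16 at Chil3, 6 of 15 at Litaf and 6 of 16 at 4931408C20Rik, each in only 1 of the 6 that left out a library. Without the regions of 50 per kb or more, 7 members were higher and 9 lower against YD, and 2 higher and 3 lower against RD. Of the 1910 regions then tested, 47 were called against YD and 32 against RD. Chil3 (chr3:106141201-106171800), for a chitinase-like protein of macrophages, was among the 66 members with no base common to all lists.

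**Figure D5:**
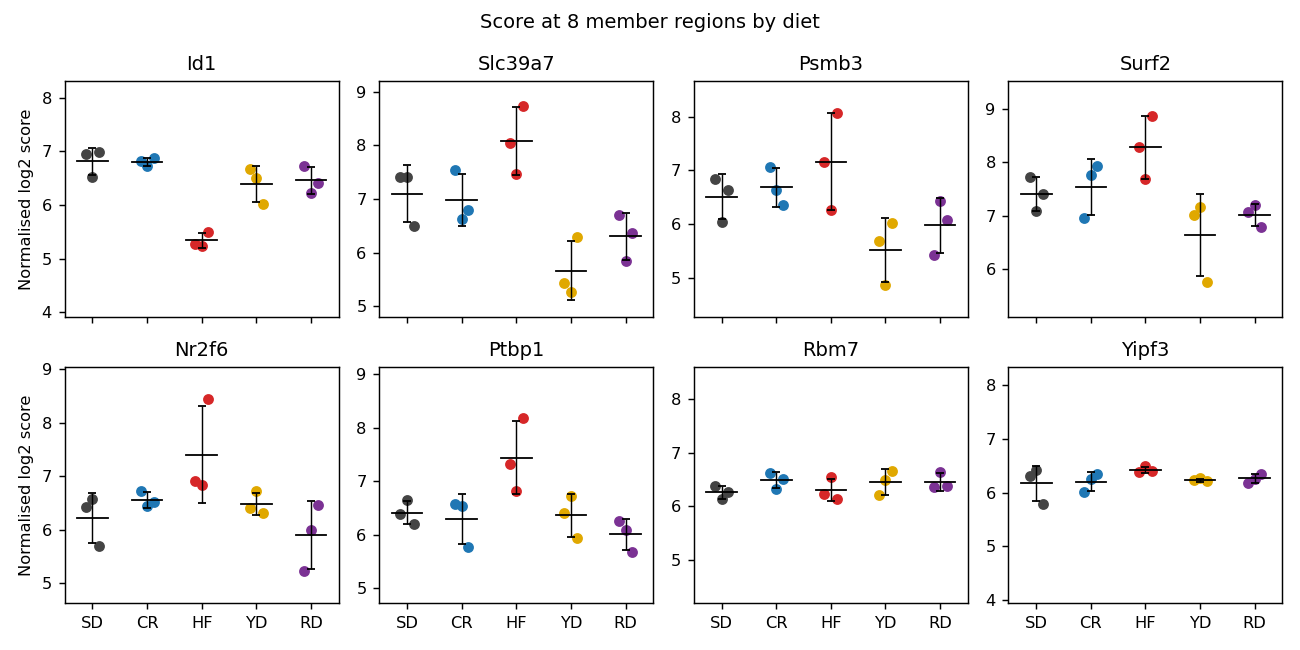
Normalised log2 score at 8 member regions in the 15 mice by diet; points are mice, black bars are means and error bars standard deviations (n = 3), and all panels span the same log2 range. Id1 was lowest in the 3 HF mice (5.24 to 5.5), Slc39a7 had its highest mean in HF and its lowest in YD, and Rbm7 (6.13 to 6.67) and Yipf3 (5.79 to 6.49) had the narrowest ranges shown.

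At the other end, some members had a steady normalised score, which is a rank within the library, while their unscaled score moved with the library. The standard deviation of the normalised log2 score over the 15 libraries had a median of 0.40 over the members. It was smallest at Gm10801 and Gm10800, where quantile normalisation gives the top ranks nearly the same value in every library, and next at Clasp1, a microtubule plus-end protein gene, Yipf3 and Rbm7. Yipf3 lay between 5.79 and 6.49 and Rbm7 between 6.13 and 6.67 in all 15 mice, and Clasp1 between 6.33 and 6.73. The mean unscaled score ran from 50.3 (YD) to 164 (HF) at Rbm7 and from 54.1 (YD) to 198 (HF) at Clasp1. The largest standard deviations were at Zfp951, Sfi1, Slc39a7, Chil3 and 4931408C20Rik. CpG-rich members had a median standard deviation of 0.40 and the 62 members with a CpG ratio under 0.3 had 0.48.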

How the data were processed

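H3K4me3 PAT-ChIP-seq islands of 15 mouse livers were analysed, 1 list per mouse. Per the methods, the authors mapped 50 bp single-end reads with bwa (mm10), dropped duplicates and alignments below MAPQ 1, kept the autosomes and X, and called islands per library with SICER2 (window 200 bp, gap 400 bp, FDR under 0.05). The deposited score of an island is not scaled between libraries, and reads per island were not used here. The library names have the form ChIP in 10 and PATChIP in 5.

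Islands were merged in Python 3.11.15 (numpy 2.4.6, pandas 2.3.3) and joined to GENCODE M21 coding TSSs. The main TSS was the one of the best APPRIS rank, with ties to the 5′-most. Reads were recovered from single-window scores with an effective genome fraction of 0.74. Scores of 1984 regions were fitted with limma 3.58.1 (R 4.3.3) with 5 diet means, after a test on simulated data, and called at an adjusted p under 0.05. The study's differential test on reads was not run, since the lists hold scores. Same-numbered mice of different diets did not deviate together (mean r -0.027, over 0.1 in 5 of 30 pairs), so the numbers were not taken as pairs.

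The members and gene lists were chosen with earlier results of these data known. Named members were up to 3 called in each direction and contrast (otherwise that of smallest p), the 5 extremes of percentile and of spread, the 3 extremes of length, those nearest the limits of the rule, the 3 of lowest CpG ratio and, per list, the top gene and up to 4 that were not members. The alternatives changed the TSS distance, width, island filters, scaling, covered length, fit and libraries.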

Additional observations from a re-analysis of the deposited data

How the results depend on the processing

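The number of members, 1325, moved to 621 when no list was allowed an island of 4000 bp or more, to 518 with islands scoring below their list's median dropped, and to 9 when each list had to cover at least 50% of the region. The other 6 planned settings and 1 added after seeing the data kept it between 1237 and 1722, and leaving out each library gave 1344 to 1959.

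Calls among the members were 0 under every setting for YD against SD, RD against SD and RD against YD, and 0 for CR against SD except 1 with the form of the library name as a term. For HF against SD the 1 call became 0 with the library median subtracted, no scaling, the covered length or the compared diets only, and 3 with the form term. Leaving out each library gave 0 to 6. For HF against YD the 20 calls became 1258 without scaling, all higher, 0 with the covered length or the compared diets only, and 13 with the form term, and 1 to 39 without each library. For HF against RD the 18 calls became 33 with the median subtracted, 1143 without scaling, all higher, 0 with the covered length, the compared diets only or the replicate block, 3 with coding regions only, 5 without regions of high score density, and 0 to 33 without each library. The cause of these changes was not tested, except that the fit to the compared diets uses 6 libraries in place of 15. The replicate block gave 21 calls for HF against YD and 1 for HF against SD, and 2 of 15 libraries correlated best with their own number. Without scaling the Id1 difference reversed to 0.84 against YD and 0.43 against RD, and with the covered length that of Oasl1 against YD reversed to 0.48.

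The scores hold no counts per region, each diet has 3 mice, and the SD and YD libraries all have the ChIP form of name, so the form cannot be compared within these diets.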
